A study of Mus musculus with 14 samples.

Results

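The genes described here carry glucose into the cell, break it down to pyruvate and lactate, admit pyruvate to the mitochondrion, or divert glucose to the pentose phosphate pathway, together with Mlxipl, which encodes the glucose-responsive transcription factor ChREBP. They are a list of 38 genes chosen by function, each read at the probe set with the highest mean over 14 arrays among the sets that name that gene alone. Of the 38, 33 were measured, out of 19937 genes on the arrays. Gpi1, Pfkfb1, Eno1 and G6pdx have no such set, and Gapdh has only sets that name several genes. RNA came from the epididymal pad, a depot of visceral fat, in C57BL6/J males. Wild-type (WT) mice and mice of the genotype written EKO, which the labels tie to apolipoprotein E, were fed either a normal (ND) or a Western diet with 42% milk fat (HFD in the labels) for 24 weeks from an age of 8 weeks. There were 3 WT arrays on each diet and 4 EKO arrays on each diet. The labels call the replicates biological without saying whether tissue was pooled; they do not describe the EKO allele further, and no treatment other than diet is named.

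Glucose enters fat cells mainly through the insulin-regulated carrier GLUT4, and other carriers of the family serve basal uptake and other cell types. Hexokinases trap it as glucose 6-phosphate, phosphofructokinase commits it to glycolysis, and lactate dehydrogenase or the pyruvate dehydrogenase complex receives the pyruvate. The oxidative pentose phosphate branch yields the NADPH that fatty acid synthesis uses, and in adipocytes ChREBP links glucose supply to the genes of that synthesis.

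All values are log2 RMA levels, so a difference of levels is a log2 fold change, given with ± its standard error (SE); levels of different probe sets are not compared. A gene is said to have risen or fallen where limma's Benjamini-Hochberg adjusted p over all 19937 genes was under 0.05. Array medians lay between 7.92 and 8.10, and arrays of a group correlated at 0.976 to 0.995. The Apoe level followed the labels: it was 13.14, 13.61 and 13.46 in WT and 9.46, 9.75, 9.99 and 9.74 in EKO on normal diet, and 13.13, 13.41 and 13.65 in WT and 10.26, 9.84, 9.92 and 10.12 in EKO on Western diet. Olfactory and vomeronasal receptor rows, taken as background, averaged 6.75 to 6.84 on 5 arrays and 6.29 to 6.56 on 9, with both kinds in every group. No measured member lay at or below the 6.84 bound in every group.

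Marker genes of cell types in the pad differed between the groups that are compared below. Over 18 macrophage markers, the mean level per array was 9.69 to 9.94 in WT on normal diet, 10.59 to 10.98 in WT on Western diet, 9.31 to 10.24 in EKO on normal diet and 9.71 to 10.05 in EKO on Western diet. Diet raised 11 of the 18 in WT, among them Itgax (log2 fold change 2.15 ± 0.17, adjusted p = 1.09e-05), and 12 of 18 were lower in EKO than in WT on Western diet. Over 11 markers of dividing cells the mean was 7.33 to 7.42, 7.84 to 8.57, 7.38 to 7.40 and 7.32 to 7.63 in the same order, and 9 of 11 rose with diet in WT. Over 9 mesothelial markers it was 10.15 to 10.56, 9.30 to 9.44, 9.56 to 10.12 and 9.78 to 10.08, and 7 of 9 fell with diet in WT. The 15 measured adipocyte markers averaged 13.30 to 13.32, 13.14 to 13.25, 13.32 to 13.40 and 13.25 to 13.37, above the background bound on every array, and 2 of 15 (Adipoq and Retn) fell with diet in WT. On Western diet, 10 of 11 markers of dividing cells were lower in EKO than in WT and 2 of 9 mesothelial markers were higher. Of the 15 adipocyte markers, 2 were higher and 1 was lower in EKO. Over all genes, 5.49% passed with diet in WT and 5.69% between the genotypes on Western diet. No macrophage or adipocyte marker had a group mean at background, whereas 7 of 12 markers of epididymis and testis were at background in each group. In whole tissue, fewer cells of a type and less RNA per cell cannot be told apart, and the part of these cell types in the results below was not tested.

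Western diet in WT mice lowered 4 of the 33 genes and raised 1. The glucose carriers Slc2a3 (GLUT3) and Slc2a4 (GLUT4), the lactate dehydrogenase subunit Ldhb and Mlxipl fell, and the hexokinase Hk3 rose. Slc2a3 fell most, by 1.05 ± 0.18 on the log2 scale, a level 2.07-fold lower (n = 3 and 3). Of all genes tested, 5.49% passed in this comparison, 3.19% higher and 2.3% lower. The median log2 fold change of the members was -0.04, beside -0.02 over all genes, and 15 of 33 lay above 0. The WT arrays of both diets did not overlap for 15 members, beside 20% of all genes: 5 were higher on Western diet (8.77% of all genes) and 10 lower (11.3%). Each of the 5 genes passed again when array background entered the model, and also in the 9 arrays of lower background alone. The count then became 8, with Pfkfb4 (higher), Pdha1 and Tkt (lower), and 11, with Pgd, Pfkp, Pfkfb4, Tpi1 and Pkm (higher) and Pdk2 (lower). Over all genes, the alternatives other than leaving out an array called 479 to 5224. The share of all genes at these 2 settings is not given here, so the larger counts are not a result about the members. The 9 arrays hold only 2 WT arrays on each diet, and WT array 1 of either diet is not among them. The count of 5 became 3 without WT array 2 or 3 on normal diet, 2 without WT array 3 on Western diet and 8 without WT array 1 on Western diet. Over all genes, leaving out each array gave 415 to 1514.

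On Western diet, EKO mice differed from WT mice in 7 of the 33 genes. Slc2a4, Slc2a3, Ldhb and the pyruvate dehydrogenase kinase Pdk2 were higher in EKO, and Hk3, the triose phosphate isomerase Tpi1 and Pfkfb4, which sets fructose 2,6-bisphosphate, were lower. Over all genes 5.69% passed, 1.64% higher and 4.05% lower in EKO. The members' median log2 fold change was -0.03, beside 0.03 over all genes. The 2 groups did not overlap for 5 members higher (the uncertain Hk1 set among them) and 5 lower in EKO, against 7.93% and 8.71% of all genes. Both this comparison and that of diet in WT use the 3 arrays of WT mice on Western diet, so Slc2a3, Slc2a4, Ldhb and Hk3, which passed in both, are not independent of each other there. All 7 passed again when array background entered the model, and also in the 9 lower arrays alone, which hold 2 WT and 2 EKO arrays on Western diet. At an unadjusted p under 0.05 there were 14 members (19.3% of all genes). The count of 7 became 2 or 1 without WT array 2 or 3 on Western diet, and 4, 3 or 3 without EKO array 1, 2 or 4 on it. Over all genes, leaving out each array gave 316 to 2108.

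**Figure D1:**
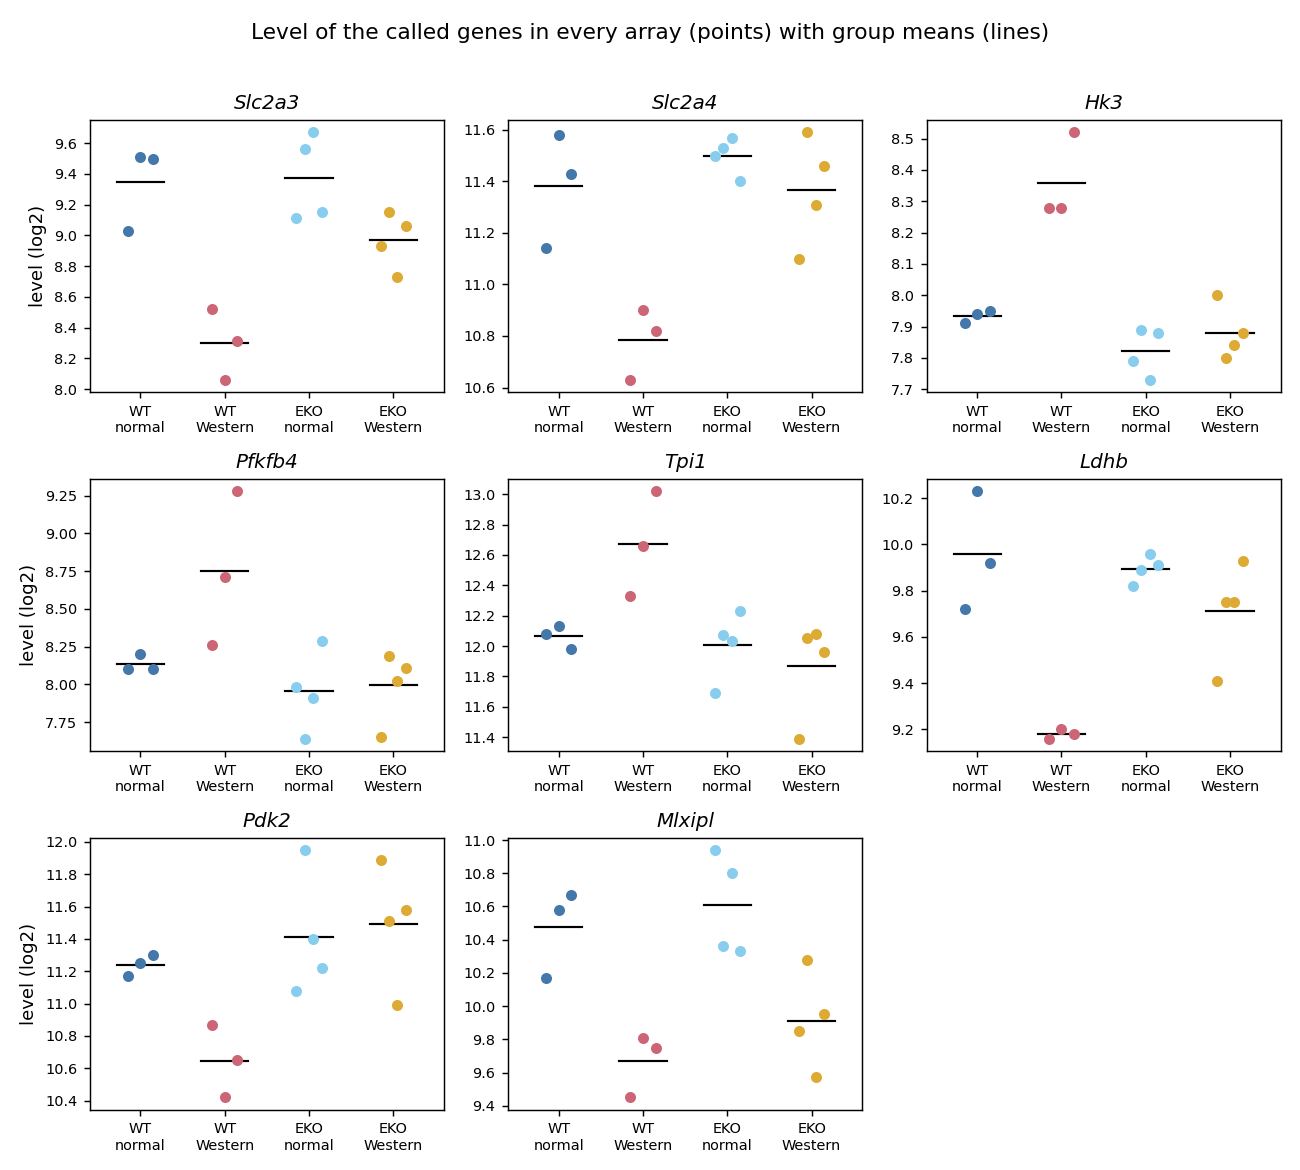
Log2 level of the 8 members that passed with diet in WT or between the genotypes on Western diet, 1 point per array, with the group mean as a line (3 WT arrays and 4 EKO arrays per diet; each panel has its own axis, which does not start at 0). In Slc2a3, Slc2a4, Ldhb and Pdk2 the 3 arrays of WT mice on Western diet are the lowest of all 14, and in Hk3 and Tpi1 they are the highest.

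In EKO mice Western diet called none of the 33 genes, and 0% of all genes passed in this comparison (limma). At an unadjusted p under 0.05 there were 6 members, and 883 of all genes (4.43%). Quantile normalization, array weights and the other alternatives also called 0 members. The largest member difference was that of Mlxipl, at -0.70 ± 0.17 on the log2 scale (adjusted p = 0.563, n = 4 and 4). The EKO arrays of both diets did not overlap for 2 members (2.56% of all genes), with Hk1 higher (0.973%) and Mlxipl lower (1.59%) on Western diet. On normal diet EKO and WT mice likewise differed in 0 members by limma, beside 0.00502% of all genes, which is Apoe alone; 1 member, Eno2 (-0.35 ± 0.13), had an unadjusted p under 0.05 (1.13% of all genes). EKO and WT arrays on normal diet did not overlap for 2 members (1.72% of all genes), Pgd higher (0.848%) and Hk3 lower (0.868%) in EKO. The test of whether the diet effect differed between the genotypes called 0 members and 0.482% of all genes by limma, with 8 members at an unadjusted p under 0.05 (10.8% of all genes). In that test 5 members passed within the 9 arrays of lower background alone (Pdk2, Ldhb, Slc2a4 and Slc2a3 higher, Pgd lower), Ldhb passed with quantile normalization and 8 members passed with array weights. Over all genes, the alternatives other than leaving out an array called 96 to 2338 in it. The share of all genes at each of these settings is not given here. In the test as fitted to all 14 arrays, no member's diet effect in WT was shown to differ from that in EKO.

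**Figure D2:**
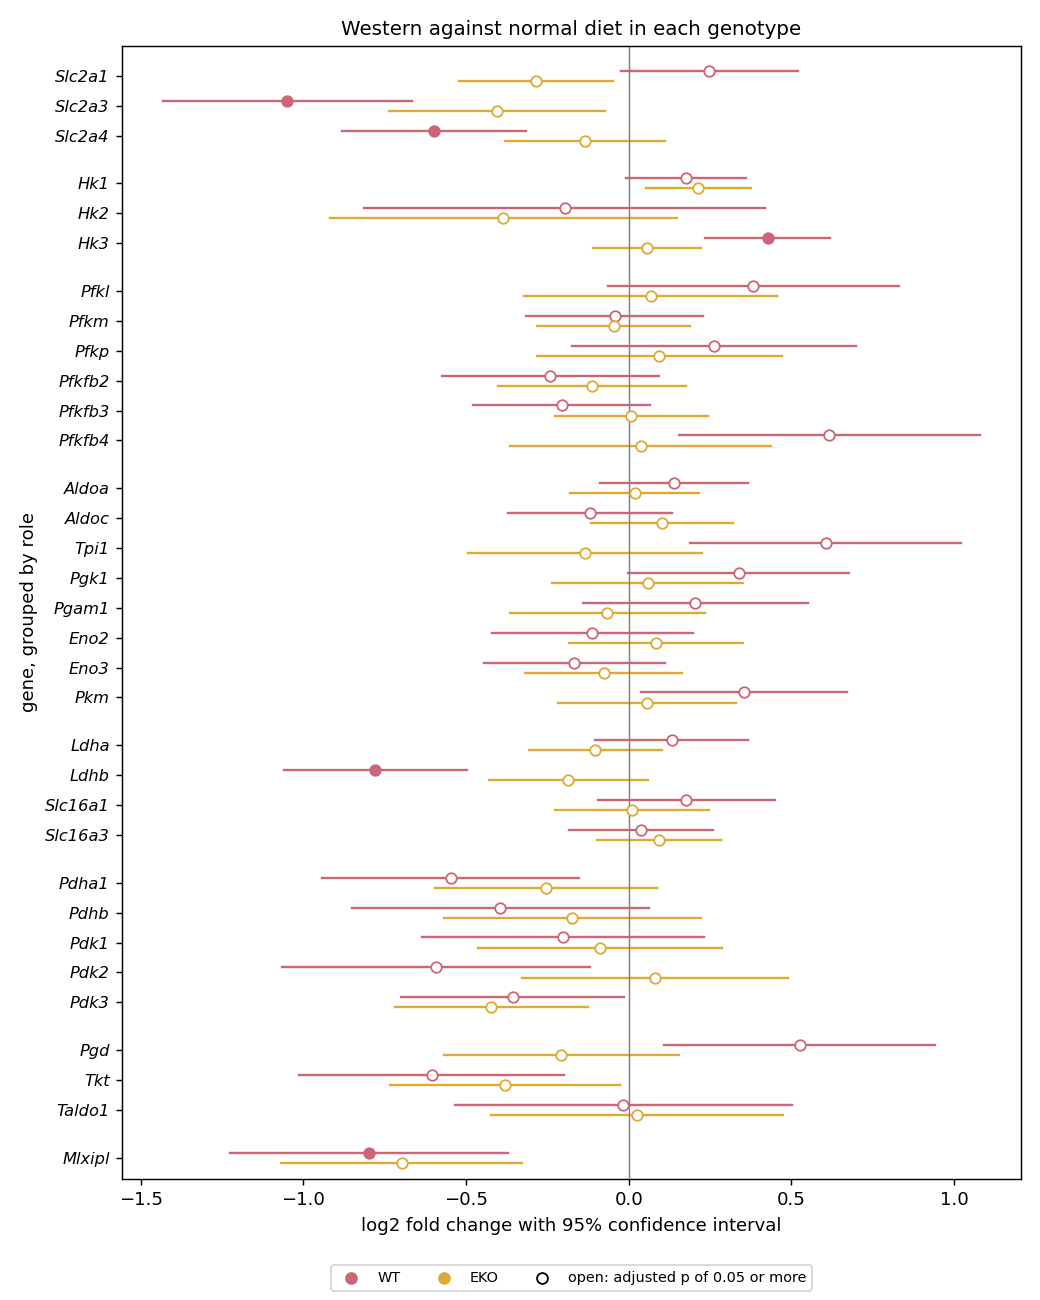
Log2 fold change of Western against normal diet for all 33 measured members, in WT and in EKO, with the 95% confidence interval from limma; filled points passed. The 5 filled points are all in WT, and the intervals of Slc2a3, Pdk3, Tkt and Mlxipl lie to the left of 0 in both genotypes.

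Promoter sequences are shown for 6 of the 8 members that passed with diet in WT or between the genotypes on Western diet, so that the stretch upstream of each start can be read beside its values. RefSeq promoters of the build GRCm38.p6 were given for 36 of the 38 genes (all but Slc2a3 and Slc2a4), and the 250 bases before the start were searched on both strands, with motifs chosen after the values were seen. The core of hypoxia response elements was searched as ACGTG. For the E-box, which contains that core, the letters were CACGTG. The GC box was searched as GGGCGG. For the core bound by PU.1 the letters were GAGGAA. Capitals mark a match or its reverse complement.
Hk3 (chr13:55021386-55021635, minus strand): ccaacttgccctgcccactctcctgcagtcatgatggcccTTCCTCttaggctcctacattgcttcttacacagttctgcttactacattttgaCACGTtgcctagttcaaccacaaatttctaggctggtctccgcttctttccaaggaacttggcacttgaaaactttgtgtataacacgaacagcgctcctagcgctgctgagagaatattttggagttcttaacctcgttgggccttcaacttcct
Pfkfb4 (chr9:108991652-108991901, plus strand): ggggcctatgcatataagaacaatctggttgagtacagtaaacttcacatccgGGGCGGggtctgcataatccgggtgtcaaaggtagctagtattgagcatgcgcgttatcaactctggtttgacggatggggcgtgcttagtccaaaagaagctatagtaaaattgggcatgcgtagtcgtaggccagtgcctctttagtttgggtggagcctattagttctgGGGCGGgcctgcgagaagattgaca
Tpi1 (chr6:124814159-124814408, minus strand): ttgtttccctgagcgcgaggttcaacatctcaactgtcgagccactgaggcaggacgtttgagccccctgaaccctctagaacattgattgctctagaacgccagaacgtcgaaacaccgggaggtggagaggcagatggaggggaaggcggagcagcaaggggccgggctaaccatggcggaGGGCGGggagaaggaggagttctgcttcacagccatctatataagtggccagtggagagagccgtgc
Ldhb (chr6:142507958-142508207, minus strand): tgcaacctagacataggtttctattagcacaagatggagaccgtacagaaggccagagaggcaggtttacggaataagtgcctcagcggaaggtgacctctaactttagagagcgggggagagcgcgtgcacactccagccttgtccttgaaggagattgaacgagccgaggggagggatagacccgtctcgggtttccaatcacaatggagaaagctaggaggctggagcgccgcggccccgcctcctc
Pdk2 (chr11:95041372-95041621, minus strand): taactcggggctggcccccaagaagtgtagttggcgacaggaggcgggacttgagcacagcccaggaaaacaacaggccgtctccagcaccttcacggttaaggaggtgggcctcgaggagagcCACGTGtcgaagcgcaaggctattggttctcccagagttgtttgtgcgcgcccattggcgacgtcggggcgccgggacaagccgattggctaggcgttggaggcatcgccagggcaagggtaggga
Mlxipl (chr5:135089640-135089889, plus strand): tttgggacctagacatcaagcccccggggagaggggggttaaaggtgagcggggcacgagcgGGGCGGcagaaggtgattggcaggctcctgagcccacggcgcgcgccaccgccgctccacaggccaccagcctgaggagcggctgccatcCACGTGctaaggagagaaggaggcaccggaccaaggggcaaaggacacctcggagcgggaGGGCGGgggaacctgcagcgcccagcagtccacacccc
The Hk3 window holds 1 ACGTG and 1 GAGGAA, Pfkfb4 holds 2 GGGCGG and Tpi1 holds 1. Pdk2 and Mlxipl each hold 1 CACGTG, and Mlxipl also 2 GGGCGG, while the other listed start of each has no CACGTG and the Ldhb window has none of the 4 motifs. Among the 47 promoters of measured members, 44.7% hold ACGTG, 14.9% CACGTG, 48.9% GGGCGG and 27.7% GAGGAA. The shares over 19129 promoters of the other tested genes are 18.3%, 6.97%, 45.5% and 22.5%. Starts of the same gene can share sequence, and a match is a description of letters.

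Among the glucose carriers, Slc2a3 encodes GLUT3, a carrier of high affinity that neurons and many blood cells use. Its level was 9.03, 9.51 and 9.50 in WT on normal diet and 8.52, 8.06 and 8.31 on Western diet; in EKO it was 9.11, 9.56, 9.67 and 9.15 on normal diet and 8.93, 9.15, 8.73 and 9.06 on Western diet. Every WT array on Western diet lay below every other array. Slc2a3 fell by 1.05 ± 0.18 with diet in WT (adjusted p = 0.00335), and in EKO the log2 fold change was -0.41 ± 0.15 (adjusted p = 0.946). On Western diet it was higher in EKO than in WT by 0.67 ± 0.17 (adjusted p = 0.0302), and the genotypes' diet effects differed by 0.64 ± 0.24 (adjusted p = 0.294). The higher level in EKO did not pass without WT array 2 or 3 on Western diet (adjusted p = 0.159 and 0.122) or without EKO array 1, 2 or 4 on it (0.0617, 0.0782 and 0.0796); the fall in WT passed under all 17 alternatives.

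Slc2a4 encodes GLUT4, the insulin-responsive carrier of fat and muscle. Its level in WT was 11.14, 11.58 and 11.43 on normal diet and 10.63, 10.90 and 10.82 on Western diet. The EKO arrays held 11.50, 11.53, 11.57 and 11.40 on normal diet and 11.10, 11.59, 11.31 and 11.46 on Western diet, and so overlapped between diets while the WT arrays did not. Slc2a4 fell by 0.60 ± 0.13 with diet in WT (adjusted p = 0.0163), against -0.14 ± 0.11 (adjusted p = 0.946) in EKO. It was 1.50-fold higher in EKO than in WT on Western diet (log2 0.58 ± 0.12, adjusted p = 0.0139). The diet effects differed by 0.46 ± 0.18 (adjusted p = 0.316). The fall in WT did not pass without WT array 2 or 3 on normal diet (adjusted p = 0.0874 and 0.0691), without WT array 3 on Western diet (0.0582) or with the WT arrays alone (0.0682), and without that array 3 the genotype difference had an adjusted p = 0.0615.

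Slc2a1, for GLUT1, the carrier of basal uptake, passed in no comparison of the main model. Its level was 9.66, 10.10 and 9.85 in WT on normal diet, 9.99, 10.11 and 10.25 for WT on Western diet, 9.84, 10.10, 10.12 and 10.14 in EKO on normal diet, and 9.65, 9.92, 9.64 and 9.86 in EKO on Western diet. On Western diet the EKO arrays lay below the WT arrays without overlap (log2 -0.35 ± 0.12, adjusted p = 0.107). This difference passed with the replicate block and with array weights. With array weights Slc2a1 also passed as higher with diet in WT and in the difference of the diet effects. The diet log2 fold change was 0.25 ± 0.13 in WT and -0.28 ± 0.11 in EKO (adjusted p = 0.363 and 0.946), and their difference -0.53 ± 0.17 (95% interval -0.89 to -0.17, adjusted p = 0.203).

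Of the hexokinases, Hk3 encodes a form found mostly in myeloid blood cells. Its level was 7.91, 7.94 and 7.95 in WT on normal diet and 8.28, 8.28 and 8.52 on Western diet. The 8 EKO arrays held 7.79, 7.89, 7.73 and 7.88 on normal diet and 8.00, 7.80, 7.84 and 7.88 on Western diet. The 3 WT arrays on Western diet were thus above all 11 others. Hk3 rose by 0.43 ± 0.09 with diet in WT (adjusted p = 0.0123), beside 0.06 ± 0.08 in EKO (adjusted p = 0.948). On Western diet it was 1.40-fold lower in EKO than in WT (log2 -0.48 ± 0.08, adjusted p = 0.00426), and the diet effects differed by -0.37 ± 0.12 (adjusted p = 0.211). Without WT array 3 on Western diet the rise in WT had an adjusted p = 0.0757, and with the WT arrays alone 0.0743, while the genotype difference passed under all 18 alternatives. The mean level of the 18 macrophage markers was likewise highest in these 3 arrays (10.59 to 10.98, against at most 10.24 in the other 11), and its part in the Hk3 values was not tested.

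Hk2, the insulin-regulated hexokinase of fat and muscle, gave a log2 fold change of -0.20 ± 0.29 with diet in WT and -0.39 ± 0.25 in EKO (adjusted p = 0.889 and 0.946). Its arrays spread widely within groups, from 9.72 to 10.66 in WT on normal diet and from 9.18 to 10.25 in EKO on Western diet. The Hk1 probe set kept by the rule held 12.01, 11.87 and 11.80 in WT on normal diet, 12.12, 12.05 and 12.04 for WT on Western diet, 11.97, 11.98, 12.14 and 12.07 in EKO on normal diet, and 12.19, 12.29, 12.35 and 12.19 in EKO on Western diet. Western diet arrays were the higher ones in each genotype without overlap, yet the log2 fold changes of 0.18 ± 0.09 and 0.21 ± 0.07 did not pass (adjusted p = 0.331 and 0.937). This set is annotated by a record that 15 other sets naming both Hk1 and Rpl17 also carry, so it is uncertain that it reads Hk1. A second Hk1 set, looked at after the values were seen, gave 0.19 ± 0.12 in WT and -0.01 ± 0.10 in EKO, and on Western diet -0.25 ± 0.11 for EKO against WT where the first gave 0.18 ± 0.08.

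Phosphofructokinase and the enzymes of its activator fructose 2,6-bisphosphate were measured by 6 genes, of which 0 passed with diet in WT, 3 lying above 0 and 3 below. Pfkfb4, a bifunctional kinase and phosphatase for that activator, was 8.10, 8.20 and 8.10 in WT on normal diet and 8.26, 8.71 and 9.28 on Western diet. It was 7.98, 7.64, 7.91 and 8.29 in EKO on normal diet and 7.65, 8.19, 8.02 and 8.11 on Western diet. The WT arrays on Western diet were spread widely, and they did not overlap those of EKO on the same diet. Pfkfb4 was lower in EKO than in WT on Western diet (log2 -0.76 ± 0.20, adjusted p = 0.0406), and diet gave 0.62 ± 0.22 in WT (adjusted p = 0.129). The genotype difference did not pass without WT array 2 or 3 on Western diet (adjusted p = 0.117 and 0.257), without any EKO array on that diet (array 1 0.112, array 2 0.0528, array 3 0.0759, array 4 0.0701) or with those groups alone (0.0908).

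The phosphofructokinase subunit genes Pfkl (0.38 ± 0.21), Pfkp (0.26 ± 0.20) and Pfkm (-0.04 ± 0.13) had adjusted p values of 0.407, 0.647 and 0.966 for the log2 fold change with diet in WT. Pfkl, the liver-type subunit, was at -0.49 ± 0.20 in EKO against WT on Western diet (adjusted p = 0.182). Pfkfb2 and Pfkfb3, for other forms of the bifunctional enzyme, gave -0.24 ± 0.16 and -0.21 ± 0.13 with diet in WT (adjusted p = 0.525 and 0.494). In EKO the log2 fold changes with diet of all 6 genes lay between -0.11 and 0.09.

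From aldolase to pyruvate kinase, 8 genes were measured and 0 passed with diet in WT in the main model, where 5 lay above 0. Tpi1, which interconverts the triose phosphates, held 12.08, 12.13 and 11.98 in WT on normal diet and 12.33, 12.66 and 13.02 on Western diet. In EKO it held 11.69, 12.07, 12.03 and 12.23 on normal diet and 11.39, 12.05, 12.08 and 11.96 on Western diet. Every WT array on Western diet was above all 11 others. Tpi1 was 1.74-fold lower in EKO than in WT on Western diet (log2 -0.80 ± 0.18, adjusted p = 0.019), a call lost without WT array 2 or 3 on Western diet (adjusted p = 0.0738 and 0.143) or with those groups alone (0.0544). With diet in WT its log2 fold change of 0.60 ± 0.19 had an adjusted p = 0.0925, in EKO it was -0.13 ± 0.17, and the difference of these was -0.74 ± 0.26 (adjusted p = 0.262). The Tpi1 change with diet in WT passed with the replicate block, quantile normalization and array weights. It also passed within the arrays of lower background and without WT array 1 on Western diet.

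Pkm, the pyruvate kinase of most tissues outside liver, gave 0.35 ± 0.15 with diet in WT and -0.31 ± 0.14 for EKO against WT on Western diet (adjusted p = 0.222 and 0.227). A second Pkm set gave 0.26 and -0.27. Pgk1, which makes the first ATP of glycolysis, was at 0.34 ± 0.16 with diet in WT (adjusted p = 0.298) and the mutase gene Pgam1 at 0.20 ± 0.16 (0.659). Aldoa and Aldoc, for aldolases, were at 0.14 ± 0.11 and -0.12 ± 0.12, and the enolase genes Eno2 and Eno3 at -0.11 ± 0.14 and -0.17 ± 0.13, all with adjusted p of 0.639 or more. The 11 sets that name Gapdh together with other genes gave diet log2 fold changes of -0.27 to 0.23 in WT and 0 passed in any comparison.

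Ldhb encodes the H subunit of lactate dehydrogenase, the form that prevails in heart. Its level was 9.72, 10.23 and 9.92 in WT on normal diet and 9.16, 9.20 and 9.18 on Western diet, and in EKO 9.82, 9.89, 9.96 and 9.91 on normal diet and 9.41, 9.75, 9.75 and 9.93 on Western diet. The 3 WT arrays on Western diet lay close together and below all others. Ldhb fell by 0.78 ± 0.13 with diet in WT, 1.72-fold (adjusted p = 0.0033), and its log2 fold change in EKO was -0.19 ± 0.11 (adjusted p = 0.946). On Western diet it was higher in EKO by 0.53 ± 0.12 (adjusted p = 0.0219), and the diet effects differed by 0.59 ± 0.17 (adjusted p = 0.168). A second Ldhb set also fell in WT, by 0.76 ± 0.16 (adjusted p = 0.0122), and was also higher in EKO on Western diet (0.63 ± 0.15, adjusted p = 0.0247). The genotype difference did not pass without WT array 2 or 3 (adjusted p = 0.0785 and 0.1) or EKO array 2, 3 or 4 on Western diet (0.0532, 0.0514 and 0.0674), whereas the fall in WT passed under all 17 alternatives.

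Ldha, the M subunit gene, gave log2 fold changes of 0.13 ± 0.11 with diet in WT and -0.23 ± 0.10 for EKO against WT on Western diet, neither of which passed (adjusted p = 0.686 and 0.239). Slc16a1 encodes the lactate carrier MCT1. It held 10.45, 10.50 and 10.62 in WT on normal diet, 10.57, 10.69 and 10.84 for WT on Western diet, 10.64, 10.06, 10.45 and 10.37 in EKO on normal diet, and 10.32, 10.34, 10.38 and 10.53 in EKO on Western diet. On Western diet the EKO arrays were below the WT arrays without overlap (log2 -0.31 ± 0.12, adjusted p = 0.16). Slc16a3, for MCT4, a lactate exporter of glycolytic cells, had the smallest spread of the members over 14 arrays (SD 0.113) and a diet log2 fold change of 0.04 ± 0.10 in WT.

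Pyruvate dehydrogenase, which turns pyruvate into acetyl-CoA, and its inhibitory kinases were measured by 5 genes. All 5 lay below 0 with diet in WT, from -0.59 to -0.20, and 0 passed. Pdk2, a widely expressed kinase gene, held 11.17, 11.25 and 11.30 in WT on normal diet, 10.87, 10.42 and 10.65 for WT on Western diet, 11.08, 11.95, 11.40 and 11.22 in EKO on normal diet, and 11.89, 11.51, 10.99 and 11.58 in EKO on Western diet. The 3 WT arrays on Western diet were the lowest of all. Pdk2 was 1.80-fold higher in EKO than in WT on Western diet (log2 0.85 ± 0.21, adjusted p = 0.0277), and its diet log2 fold change was -0.59 ± 0.22 in WT (adjusted p = 0.157) and 0.08 ± 0.19 in EKO. The genotype difference did not pass without WT array 2 or 3 (adjusted p = 0.139 and 0.118) or EKO array 1, 2 or 4 on Western diet (0.0773, 0.0597 and 0.0721).

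Pdha1, the catalytic alpha subunit gene, held 11.52, 11.86 and 11.56 in WT on normal diet and 10.90, 11.10 and 11.31 on Western diet. In EKO it held 11.79, 11.77, 11.89 and 11.41 on normal diet and 11.01, 11.83, 11.42 and 11.59 on Western diet. The WT arrays did not overlap between diets and the EKO arrays did; the log2 fold change was -0.55 ± 0.18 in WT (adjusted p = 0.112) and -0.25 ± 0.16 in EKO (0.946). Pdhb, the beta subunit gene, gave -0.39 ± 0.21 in WT and Pdk1 -0.20 ± 0.20 (adjusted p = 0.399 and 0.777). Pdk3 held 9.23, 9.01 and 9.26 against 8.70, 8.87 and 8.84 in WT, and 9.18, 8.97, 9.15 and 9.52 against 8.43, 9.06, 8.67 and 8.97 in EKO, normal diet first. Its log2 fold changes with diet, -0.36 ± 0.16 in WT and -0.42 ± 0.14 in EKO, did not pass (adjusted p = 0.266 and 0.856), and their difference was -0.07 (95% interval -0.52 to 0.39).

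Of the pentose phosphate genes, 3 were measured and 0 passed with diet in either genotype in the main model. Pgd, which makes NADPH in the oxidative branch, held 12.23, 12.19 and 12.24 in WT on normal diet, 12.38, 12.83 and 13.02 for WT on Western diet, 12.46, 12.30, 12.33 and 12.38 in EKO on normal diet, and 11.57, 12.39, 12.46 and 12.22 in EKO on Western diet. The WT arrays did not overlap between diets, and EKO array 1 on Western diet was the lowest of all. The Pgd log2 fold change with diet was 0.53 ± 0.19 in WT and -0.21 ± 0.17 in EKO (adjusted p = 0.155 and 0.946), and their difference was -0.73 ± 0.26 (adjusted p = 0.27). EKO against WT on Western diet gave -0.58 ± 0.18 (adjusted p = 0.0792), which passed with the replicate block (0.0499), with the background block (0.0493), within the 9 arrays of lower background (0.00756), with quantile normalization, with array weights and without WT array 1 on Western diet. Tkt, the transketolase of the non-oxidative branch, had the opposite sign in WT: 11.19, 11.20 and 11.04 on normal diet and 10.33, 10.68 and 10.61 on Western diet, a log2 fold change of -0.61 ± 0.19 (adjusted p = 0.0847). In EKO, Tkt was 11.35, 11.27, 11.29 and 10.90 on normal diet and 10.36, 11.34, 10.78 and 10.82 on Western diet, which overlap (-0.38 ± 0.16, adjusted p = 0.946). The Tkt change with diet in WT passed with the background block, quantile normalization, array weights and the WT arrays alone. Taldo1, the transaldolase, was at -0.02 ± 0.24 and 0.02 ± 0.21.

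Mlxipl encodes ChREBP, which binds carbohydrate response elements with its partner Mlx. It held 10.17, 10.58 and 10.67 in WT on normal diet and 9.45, 9.81 and 9.75 on Western diet, and 10.94, 10.36, 10.80 and 10.33 in EKO on normal diet and 9.85, 10.28, 9.57 and 9.95 on Western diet. The arrays of both diets did not overlap in either genotype. Mlxipl fell by 0.80 ± 0.20 in WT (adjusted p = 0.031), and the log2 fold change in EKO of -0.70 ± 0.17 did not pass (adjusted p = 0.563). The genotypes' diet effects differed by 0.10 ± 0.26 (95% interval -0.46 to 0.67), and EKO and WT differed by 0.14 ± 0.19 on normal and 0.24 ± 0.19 on Western diet. The fall in WT did not pass without WT array 2 or 3 on normal diet (adjusted p = 0.119 and 0.135) or without WT array 1, 2 or 3 on Western diet (0.0749, 0.0609 and 0.0909).

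A further contrast, chosen after the values were seen, averaged the diet effects of both genotypes. Here 5 members fell and 1 rose, beside 3.45% of all genes called, 1.77% lower and 1.68% higher. Slc2a3 (-0.73 ± 0.12, adjusted p = 0.00409), Mlxipl (-0.75 ± 0.13, 0.00639) and Ldhb (-0.48 ± 0.09, 0.00759) fell, and each passed under all 24 alternatives. Slc2a4 (-0.37 ± 0.09, 0.0331) and Tkt (-0.49 ± 0.13, 0.0453) fell and Hk3 (0.24 ± 0.06, 0.0381) rose. These passed under 15, 11 and 12 of the 24. An average does not show an effect in each genotype, and none of these genes passed in EKO. The values in WT and EKO were -1.05 and -0.41 for Slc2a3, -0.80 and -0.70 for Mlxipl, and -0.78 and -0.19 for Ldhb. They were -0.60 and -0.14 for Slc2a4, -0.61 and -0.38 for Tkt, and 0.43 and 0.06 for Hk3.

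**Figure D3:**
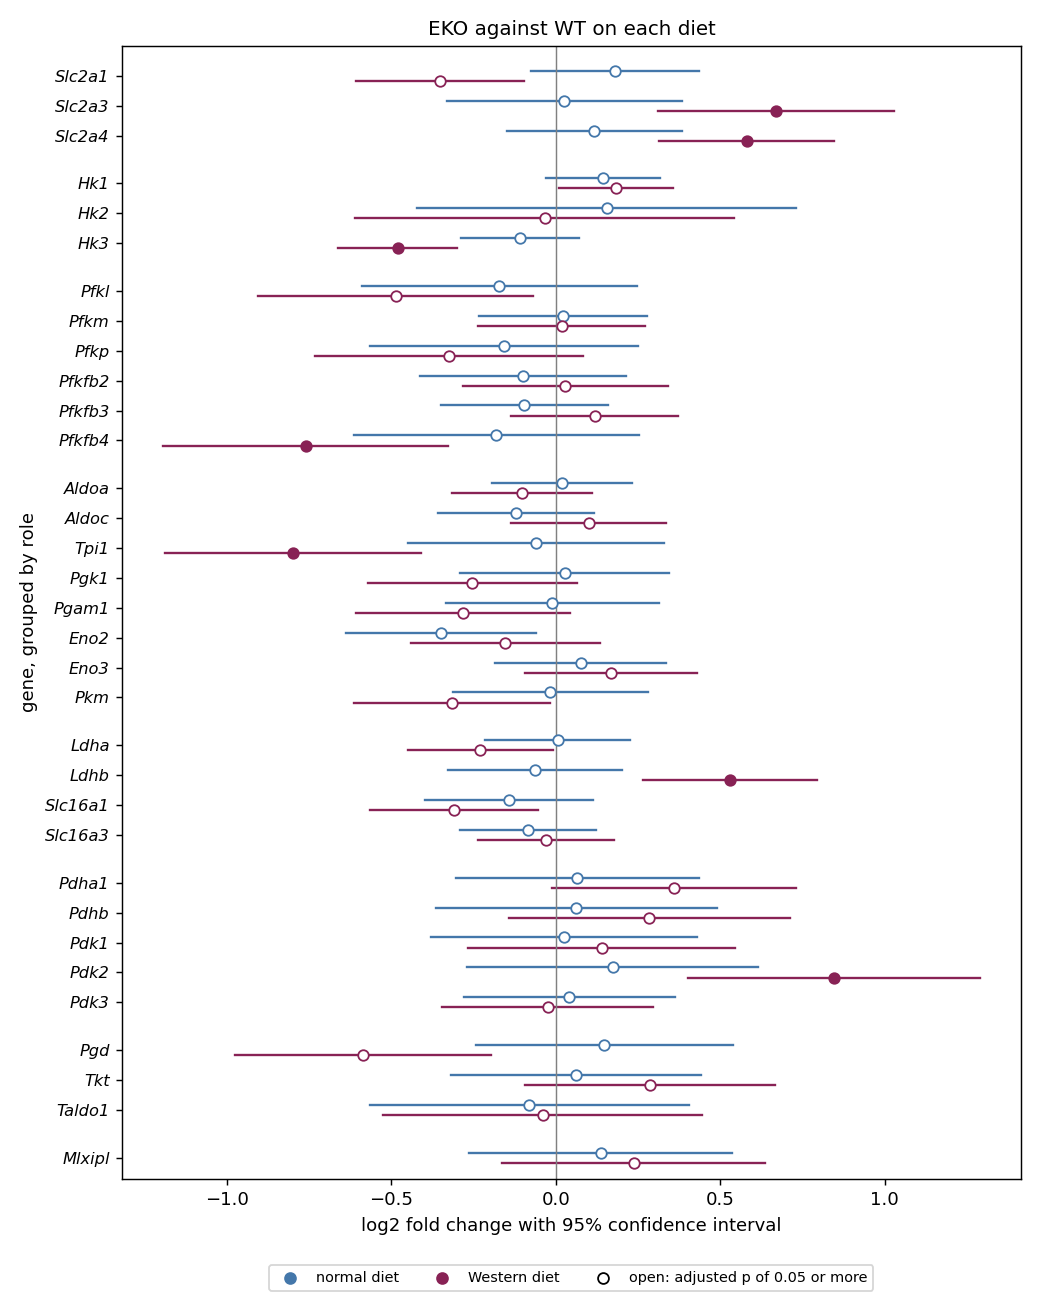
Log2 fold change of EKO against WT for the 33 measured members on normal and on Western diet, with the 95% confidence interval from limma; filled points passed. The 7 filled points are all on Western diet, 4 to the right of 0 (higher in EKO) and 3 to the left.

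Other genes of glucose metabolism were counted from lists chosen by function, 101 of them measured. The counts with diet in WT stand beside 5.49% of all genes that passed in that comparison. With diet in WT, 1 of 14 other hexose and monocarboxylate carriers passed, 0 of 13 other glycolytic enzymes, 0 of 11 other pyruvate entry genes, 1 of 11 other pentose phosphate genes, 0 of 6 glucose production genes, 2 of 14 glycogen genes, 0 of 12 ChREBP partners and targets, 2 of 12 genes of the hypoxia and lactate response and 1 of 8 genes of GLUT4 vesicle traffic. The glycogen phosphorylase genes Pygb (-1.05 ± 0.12, adjusted p = 0.000294) and Pygm (-0.46, 0.00735) fell. Pygb went from 11.98 ± 0.14 to 10.93 ± 0.16 in WT and was 11.94 ± 0.13 and 11.64 ± 0.16 in EKO (SD, n = 3 per WT and 4 per EKO group). Slc16a7, the carrier MCT2, fell by 0.78 ± 0.12 (adjusted p = 0.00194), and Prps1, which makes phosphoribosyl pyrophosphate, rose by 0.68 (0.0222). Hif1a, the oxygen-regulated transcription factor gene, rose by 0.79 (adjusted p = 0.021), while Ndrg1, a hypoxia-induced gene, and Sort1, a sorting receptor of GLUT4 vesicles, fell by 0.67 and 0.43 (adjusted p = 0.031 and 0.0304). Pygb and Slc16a7 passed under all 17 alternatives and Pygm under 16; Hif1a, Ndrg1 and Sort1 passed under 12 and Prps1 under 11. Hif1a was lost without WT array 2 or 3 on normal diet (adjusted p = 0.0873 and 0.0531) or array 2 or 3 on Western diet (0.101 and 0.104), and Ndrg1 without array 1 or 3 on normal diet (0.0675 and 0.135) or array 2 or 3 on Western diet (0.132 and 0.159). Sort1 was lost without WT array 2 or 3 on normal diet (0.138 and 0.127) or array 1 or 3 on Western diet (0.0762 and 0.115). With the WT arrays alone, Hif1a (adjusted p = 0.0896), Ndrg1 (0.0939), Sort1 (0.133) and Pygm (0.0514) did not pass. Prps1 was lost without WT array 1, 2 or 3 on normal diet (0.0724, 0.0555 and 0.0538), without array 2 or 3 on Western diet (0.0502 and 0.114) and within the arrays of lower background (0.0885).

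For EKO against WT on Western diet, 2 of the 14 other carriers, 1 of the 14 glycogen genes, 1 of the 12 ChREBP partners and targets and 1 of the 12 genes of the hypoxia and lactate response passed, and 0 in each of the other 5 lists. These counts stand beside 5.69% of all genes that passed in this comparison. Slc16a7 (0.73, adjusted p = 0.00221) and Pygb (0.71, 0.00254) were higher in EKO. Txnip, an inhibitor of glucose uptake that ChREBP induces, was also higher (0.63, 0.0346), though its arrays overlapped. Hif1a (-0.88, adjusted p = 0.00868) and Slc2a10, a member of the hexose carrier family (-0.98, 0.0105), were lower. Slc16a7 and Pygb passed under all 18 alternatives. Hif1a and Slc2a10 passed under 16, being lost without WT array 2 or 3 on Western diet (adjusted p = 0.0569 and 0.0617 for Hif1a, 0.0707 and 0.0757 for Slc2a10). Txnip passed under 12, being lost without WT array 2 or 3 on Western diet (adjusted p = 0.189 and 0.2), without EKO array 1, 2 or 4 on it (0.0906, 0.064 and 0.0898) and with those groups alone (0.0988). In EKO with diet, between the genotypes on normal diet and in the test of the difference of diet effects, 0 genes of these 9 lists passed by limma.

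**Figure D4:**
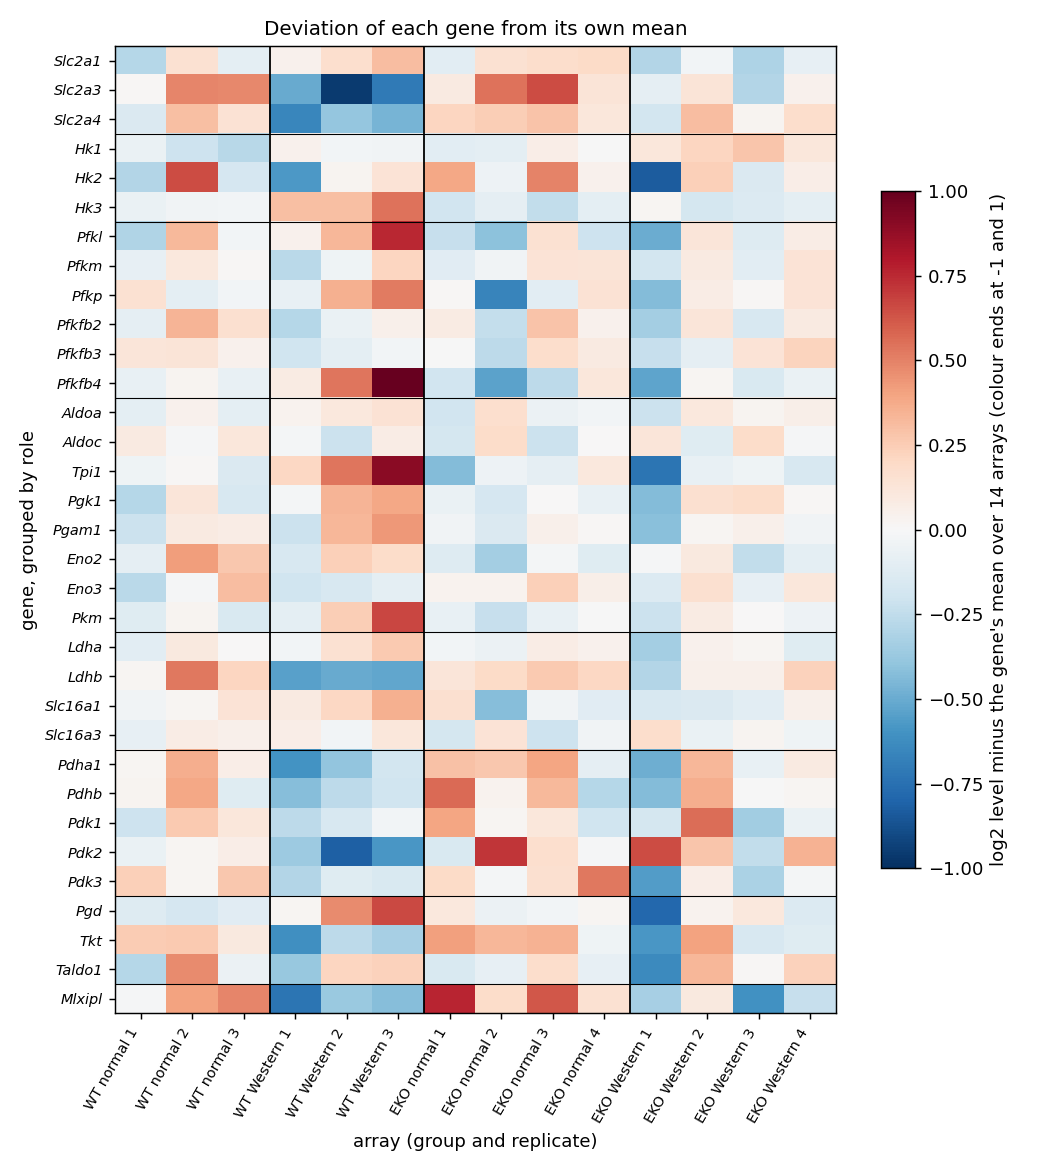
Log2 level of each measured member minus its own mean over the 14 arrays (colour, red above and blue below; values past 1 or -1 take the end colour), with genes in rows by role and arrays in columns by group and replicate. WT array 1 on Western diet and EKO array 1 on Western diet are blue for most genes, and WT array 3 on Western diet is the reddest for Pfkfb4 and Tpi1.

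Arrays of a group also differed across members. WT array 1 on Western diet was the lowest of its group for 28 of the 33 genes (84.8%), beside 44.7% of all genes and 74.3% of those with a mean level over 9; 10 of the 33 members have a mean under 9. EKO array 1 on Western diet was the lowest of its group for 23 members (69.7%, beside 35.2% of all genes and 65.3% of those over 9), and WT array 1 on normal diet for 23 (69.7%, beside 42.1% and 52.3%). These arrays are among the 5 of higher background. WT array 3 on Western diet was the highest of its group for 24 of the 33 members, beside 36.3% of all genes, among them Hk3, Tpi1, Pfkfb4 and Pgd. The SD over 14 arrays ranged from 0.113 for Slc16a3 to 0.479 for Slc2a3, with a median of 0.262 over members and 0.165 over all genes.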

How the data were processed

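RNA from the fat pad was hybridised to 14 Affymetrix arrays. The authors deposited log2 values; the submitters' processing notes name RMA and no settings; RMA equalises arrays, so a shift shared by most genes would not be seen. The deposited table has 34760 rows, of which the platform annotation gives 21640 1 symbol, 1321 several and 11799 none. For 954 genes with several sets the set with the highest mean was kept, leaving 19937 genes.

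Groups came from the labels. A model with 1 mean per group was fitted to all 14 arrays (limma 3.58.1, R 4.3.3, lmFit and eBayes, 10 residual degrees of freedom), with 6 contrasts and Benjamini-Hochberg adjustment over all genes, two-sided; it was tested on simulated data. The number of arrays limits the precision. The members, gene lists and tests were chosen with earlier results of these data known; the contrast averaged over genotypes, the second Hk1 set and the motifs were chosen after the values were seen. All members were to be named, with every array's value for the 15 of smallest p that passed or whose groups did not overlap; genes of other lists were named where they passed (pathway lists), or up to 8 per comparison. Alternatives were other normalizations, priors, weights, filters, probe set means, blocks, the groups compared alone, and leaving out each array. RefSeq sequences are of GRCm38.p6; the genome build behind the array annotation was not given in the sources used here.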

Additional observations from a re-analysis of the deposited data

Results flagged for a closer look

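In 66 sets of 4 EKO arrays (33 genes on each diet), 2 held an array set apart from the others by Dixon's criterion, which chance alone meets in about 1 of 20. Slc2a1 was 9.84 in EKO array 1 on normal diet, while the others of the group were 10.10 to 10.14. Eno3 was 8.65 in EKO array 3 on normal diet, against 8.44 to 8.47 in the others. Groups of 3 WT arrays were not looked at in this way.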

How the results depend on the processing

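Of 45 single-gene results, 838 alternative values kept the direction in every case; 735 passed and 103 did not. With diet in WT the 5 members called became 8 with the background block, 11 within the arrays of lower background, 8 with quantile normalization and 21 with array weights, and 2 (without WT array 3 on Western diet) to 8 (without WT array 1 on Western diet) when each array was left out. Leaving out WT array 2 or 3 on normal diet gave 3. For EKO against WT on Western diet the 7 called became 22 with array weights and 1 (without WT array 3 on Western diet) to 10 (without WT array 1) when each array was left out; without WT array 2 there were 2 and without EKO array 1, 2 or 4 there were 4, 3 and 3. For the difference of the diet effects the count of 0 became 5 within the arrays of lower background (Pdk2, Ldhb, Slc2a4, Slc2a3 and Pgd), 1 with quantile normalization (Ldhb) and 8 with array weights. Over all 19937 genes the counts also moved under the alternatives other than leaving out an array. They reached at most 5224 (diet in WT), 6789 (EKO against WT on Western diet) and 2338 (difference of the diet effects). The member counts at single settings are not set beside the share of all genes at the same setting. Whether a rise is particular to the members was therefore not tested. The causes were not tested. Diet in EKO and genotype on normal diet gave 0 members under every alternative run. For the diet effect averaged over genotypes the 6 called ranged from 3 to 8 when each array was left out and from 5 to 16 under the others.

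Over all genes, the counts when each array was left out ran from 415 to 1514 (diet in WT), 0 to 4 (diet in EKO), 1 to 3 (genotype, normal diet), 316 to 2108 (genotype, Western diet) and 37 to 499 (difference of diet effects). Under the other alternatives they ran from 479 to 5224, 0 to 8, 1 to 2, 912 to 6789 and 96 to 2338.

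Replicate numbers were not taken as pairs in the main model, and whether they pair the samples is not settled. Of 19 pairs of equal number, 12 had deviations correlated above 0.1, over a range of -0.593 to 0.644. Pairs of number 1 lay at 0.162 to 0.644, of number 2 at -0.593 to 0.485 and of number 3 at -0.421 to 0.356, and that of number 4 at 0.452. Pairs of unequal number were not looked at, so these values have no reference. WT array 1 on either diet and EKO array 1 on Western diet are also arrays of higher background. The part of background in these correlations was not tested. With the replicate block the members called were 6 with diet in WT, 0 in EKO, 0 between genotypes on normal diet, 9 on Western diet and 0 for the difference; over all genes there were 1300, 1, 2, 1672 and 159. Groups of 3 and 4 arrays, and probe sets shared between genes, limit what could be measured.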
